A study of Zea mays with 9 samples.

Results

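Maize seedlings that grew beside weeds received light reflected from the weed leaves, and their leaf transcriptome was compared with that of seedlings grown without weeds. Genes were taken where 3 or more of the 6 libraries compared had a DESeq2-normalized count of 10 or more, which gave 23600 of the 30184 genes in the deposited table, or 78.2%. The plants were seedlings of the hybrid CG108 x CG102, and the second leaf was collected at 9 days. The weed-free control had a red to far-red ratio (R:FR) of about 1.5, and the biological low R:FR treatment had a ratio of about 0.6, as the labels give them. The study's text gives a higher ratio for the control and a lower one for the treatment. Each group had 3 libraries, each from a pool of 3 plants, so p-values measured the spread between pools, and 6 of the 9 libraries of the series entered here. Every seedling stood in a cup inside a tube, which kept its roots apart from those of the neighbours, and both groups had the same incoming photosynthetic light. In the biological treatment the surrounding pot held a potting mix with a grass mixture of red fescue, Kentucky bluegrass and perennial ryegrass as a surrogate weed, whereas in the control it held baked clay granules. The reflected light and the surrounding material therefore changed together and cannot be told apart.

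Green leaves absorb red light and reflect far-red light, so a neighbouring plant lowers the R:FR ratio before it casts any shade. Phytochromes sense this ratio, since far-red light returns them to their inactive form and releases the phytochrome-interacting factors (PIFs), which are transcription factors that they otherwise hold in check. In grasses the response is known to include elongation of leaves and stems, restrained tillering and shifts in hormone, pigment and defence metabolism.

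The 3 weed-free libraries held between 22775151 and 33132805 reads in genes, and the 3 biological libraries held between 23372555 and 40283408, with the deepest being the third biological library. That library stood apart from the others. Its mean distance from the other libraries was 0.897 on the log2 scale, against 0.555 to 0.632 for the other libraries of the series, and fold changes are given with it (over 6 libraries) and without it (over 5 libraries). The sample names were a second limit, because the study's read totals for the weed-free and artificial groups matched the deposited columns only if these names were exchanged. The libraries are named here as the labels name them, and the outcome with the artificial libraries in place of the weed-free ones is given beside the counts.

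The markers were those of a green leaf. The summed level of 4 mesophyll genes (2 genes named pep1, with mdh6 and ppdk1) was 23582 to 26509 TPM (a level scaled to transcript length and library total) in the weed-free libraries and 18806 to 29170 TPM in the biological libraries. The third biological library held the lowest of these sums. The summed level of 4 bundle sheath genes (rca, me3 and 2 rbcs genes) was 13736 to 15643 TPM in the weed-free and 16211 to 18431 TPM in the biological libraries, so these sums did not overlap. Taken singly, rca and me3 did not overlap either, but both rbcs genes did. The more abundant rbcs gene had 6370 to 7317 TPM in the weed-free and 6965 to 8450 TPM in the biological libraries. In normalized counts, 8.58% of all genes tested were higher without overlap. The meristem gene kn1 had at most 0.121 TPM in any library. In whole leaves, a smaller share of cells of one type and less RNA per cell cannot be told apart, and the part of cell composition in the results was not tested.

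Over all 6 libraries, 11 genes were higher under biological low R:FR light and 0 were lower (limma on log2(normalized count + 1), Benjamini-Hochberg adjusted p under 0.1). These made up 0.0466% of the genes tested for the higher calls and 0.0% for the lower calls. At an unadjusted p under 0.05 there were 2374 genes, and edgeR and DESeq2 on the recovered reads called 12 and 501 genes. Without the third biological library, 1932 genes were called, or 8.19% of those tested, with 1069 higher (4.53%) and 863 lower (3.66%). Of these, 154 rose by at least 2-fold and 153 fell by at least 2-fold. The median log2 fold change was 0.56 among the genes that rose and -0.58 among those that fell, beside a median of -0.01 over all genes tested.

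The larger count changed much when single further libraries were left out. Each such fit holds fewer libraries and has less power. A lost call alone, here and below, therefore does not show that a gene rested on the library left out. In these fits 0 of the named genes that had been called changed sign. Without the second weed-free library as well, 32 genes were called, and without the first or the third weed-free library 254 and 621 were called. Without the first or second biological library the counts were 1510 and 4120. With the libraries labelled artificial in place of the weed-free ones, 110 genes were called over 5 libraries and 0 over 6, with 1993 genes at an unadjusted p under 0.05 over the 6 (limma). Of 101 named genes called over 5 libraries, 90 were not called over 6, with limma adjusted p-values of 0.118 to 0.969, and 5 of them had the opposite sign over 6. Of the 101, the call was lost by 88 without the second weed-free library, 74 without the first and 53 without the third, and by 41 and 9 without the first and the second biological library. Of the genes called over 5 libraries, 518 that rose had all 3 biological libraries above all 3 weed-free libraries, and 446 that fell had them all below. Among all genes tested, 2024 (8.58%) were higher without overlap and 2154 (9.13%) were lower without overlap.

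**Figure D1:**
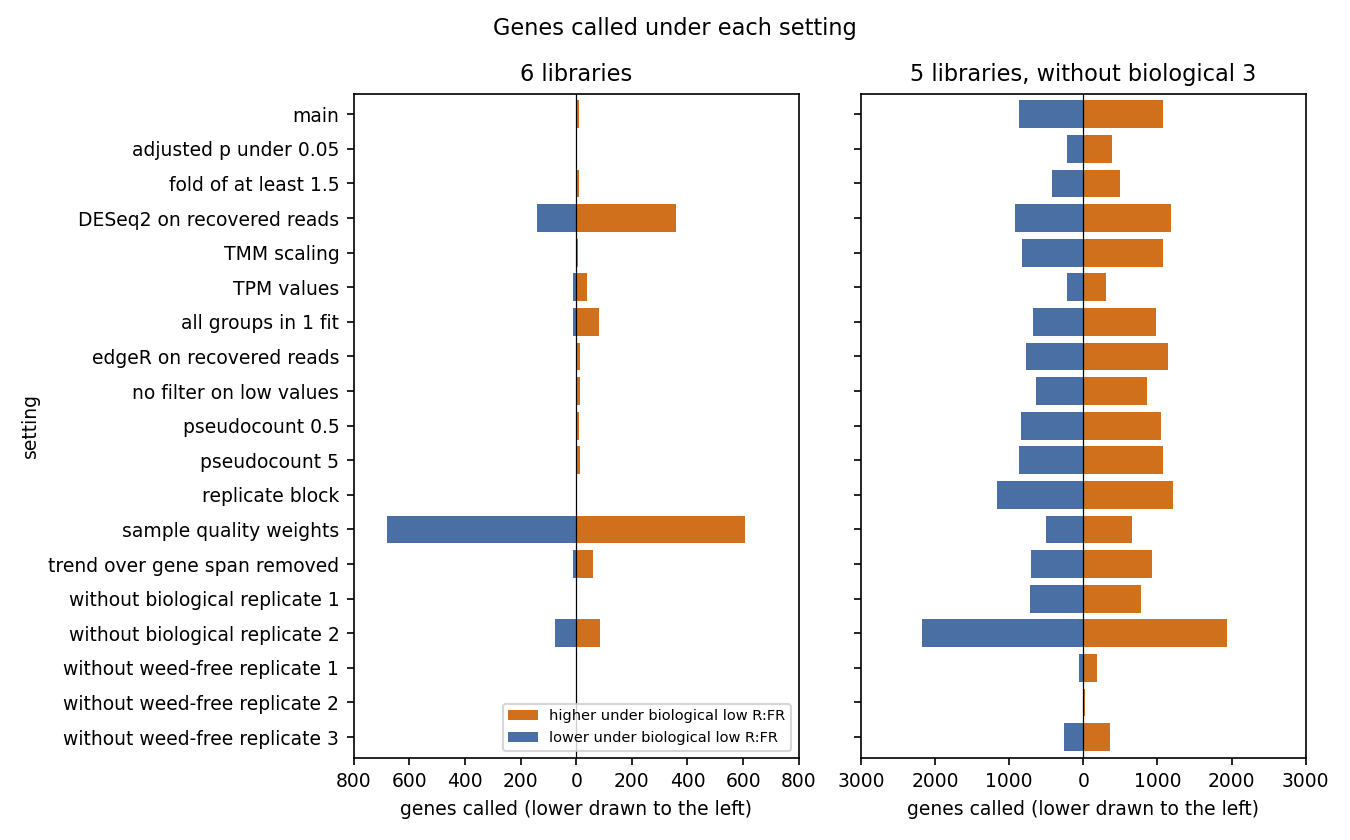
Number of genes called higher (orange, to the right) and lower (blue, to the left) under each setting, for the comparison over 6 and over 5 libraries. The count goes from 0 to 1932 over 6 libraries and from 32 to 4120 over 5 libraries when single libraries are left out.

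The 11 genes that rose over all 6 libraries carry no name in the annotation, and 1 of them, LOC103643717, is annotated as a long non-coding RNA. Their fold changes ran from 2.08-fold to 16.0-fold. All 11 were also called without the third biological library, and each of them stayed called whichever other library was then left out as well. Over the 6 libraries with a replicate block, 1 of them (LOC100281995) was called, and without the first biological, the first weed-free or the second weed-free library 0 of them were. Without the third weed-free library 1 was (LOC103650186), and without the second or the third biological library all 11 were. Coordinates are those of the deposited files, which for 93.9% of the matched genes equal the starts and ends in the RefSeq annotation of the assembly Zm-B73-REFERENCE-NAM-5.0.

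LOC103629226 (chromosome 6, 42758157 to 42759948) was the most highly counted of the 11. Its normalized counts were 8775, 7914 and 8335 in the weed-free libraries and 18489.7, 15822 and 17690.0 in the biological libraries 1 to 3. The lowest biological library was far above the highest weed-free library. The log2 fold change was 1.05 (SE 0.11, limma adjusted p = 0.0734) over 6 libraries and 1.04 (adjusted p = 0.00602) over 5.

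LOC103643793 (chromosome 10, 25427355 to 25427989) had counts of 50.1, 48.6 and 43.6 in the weed-free libraries and 413, 353 and 667 in the biological libraries. The weed-free libraries lay close together and the third biological library was the highest. Its log2 fold change was 3.25 (SE 0.25, limma adjusted p = 0.036) over 6 libraries. LOC100285804 (chromosome 8, 122981022 to 122984001) had 371, 392 and 380.0 against 1094, 1184 and 1364, a log2 fold change of 1.66 (SE 0.12, limma adjusted p = 0.036). These were the smallest adjusted p-values of the comparison, and these 2 genes were the only ones under an adjusted p of 0.05 over 6 libraries.

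A pair of the genes lay on chromosome 3, with starts 460773 bases apart. LOC103650186 (69462369 to 69462995) had counts of 8.95, 8.94 and 24.6 in the weed-free libraries and 192, 194 and 275 in the biological libraries, the largest change of the 11 at 16.0-fold (SE 0.40 on the log2 scale, limma adjusted p = 0.0734). LOC103650187 (69923142 to 69923952) had counts of 286, 271 and 352 against 948, 991 and 1435, a log2 fold change of 1.87 (SE 0.19, limma adjusted p = 0.0747). In both genes the third biological library was the highest of the 6.

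LOC100281995 (chromosome 10, 150645680 to 150646855) had counts of 97.6, 92.0 and 145 against 611, 559.7 and 975, a log2 fold change of 2.66 (SE 0.27, limma adjusted p = 0.0734). LOC100280533 (chromosome 2, 160906487 to 160907266) had 452, 289 and 346 against 1317, 1255 and 1957, a log2 fold change of 2.05 (SE 0.23, limma adjusted p = 0.0977). The groups were far apart in both, and again the third biological library was the highest.

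LOC103639086 (chromosome 9, 131152022 to 131153542) had 224, 263 and 298 against 724, 740.4 and 888, a log2 fold change of 1.58. LOC100383984 (chromosome 8, 171823035 to 171825351) had 551, 446 and 608 against 1391, 1453 and 1936, a log2 fold change of 1.57. LOC100275651 (chromosome 2, 193039763 to 193040543) had 1126, 1251 and 1308 against 2838, 2875 and 2585, a log2 fold change of 1.17. In LOC100275651 the third biological library was the lowest of the biological libraries, whereas in LOC103639086 and LOC100383984 it was the highest. The non-coding LOC103643717 (chromosome 1, 260026001 to 260027016) had 2079, 2236 and 1988 against 4727, 3928 and 5044, a log2 fold change of 1.11 (SE 0.13, limma adjusted p = 0.0977).

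**Figure D2:**
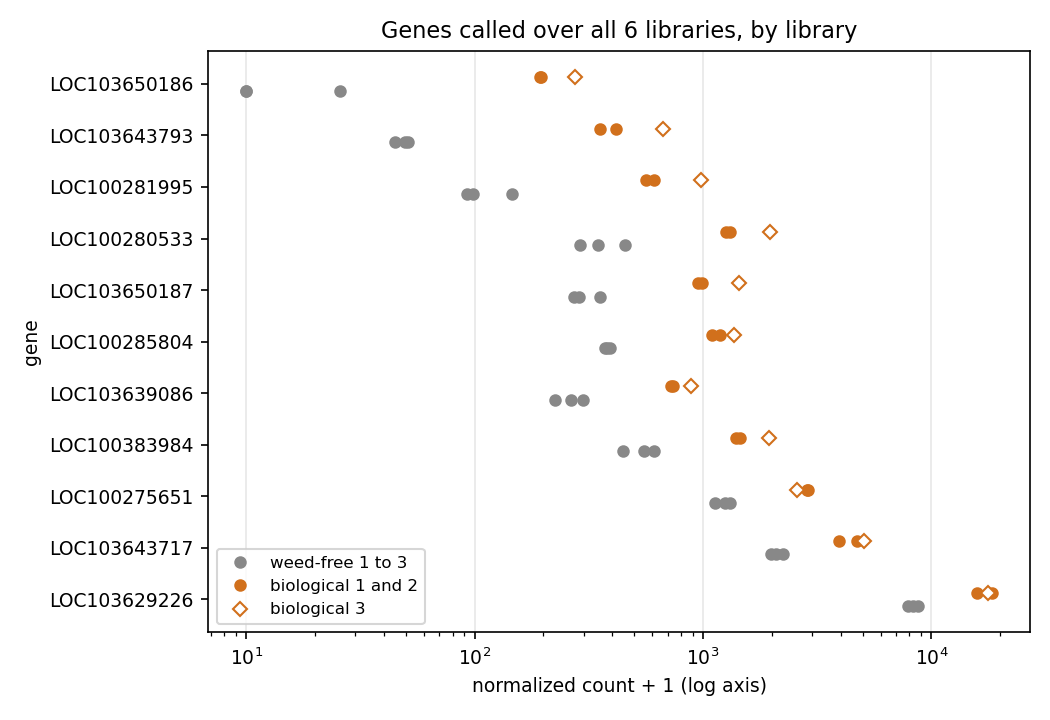
Normalized count + 1 on a log axis for the 11 genes called over all 6 libraries, with 1 point per library (grey, weed-free 1 to 3; filled orange, biological 1 and 2; open diamond, biological 3). In every gene all 3 biological points lie to the right of all 3 weed-free points, from 192 to 275 against 8.95 to 24.6 in LOC103650186.

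Of 6 phytochrome and PIF genes tested, 1 rose without the third biological library (16.7%, beside 8.19% of all genes called) and 0 fell, and the median log2 fold change of the 6 was 0.17. PHYB1, which encodes a form of phytochrome B, the main sensor of the R:FR ratio, had normalized counts of 779.8, 676 and 721 in the weed-free libraries and 1125, 1002 and 768 in the biological libraries. The first and second biological libraries were above all weed-free libraries and the third was among them. Its log2 fold change was 0.55 (SE 0.10, limma adjusted p = 0.039) over 5 libraries and 0.40 (adjusted p = 0.483) over 6, and it was not called from TPM values or without any one of the weed-free libraries.

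PIF5, one of the interacting factors, had 922, 823 and 939 against 1193, 969.8 and 1657, so the groups did not overlap, but its log2 fold change of 0.27 over 5 libraries did not pass the test (limma adjusted p = 0.217). The other phytochrome genes did not pass the test, with log2 fold changes of 0.32 for PhyB2, -0.17 for PHYC and -0.07 for phyA2. The gene elm1, for the enzyme that completes the phytochrome chromophore, had 371, 385 and 352 against 292, 276 and 286. The groups did not overlap, and its log2 fold change was -0.38 (SE 0.11, limma adjusted p = 0.0998), at the edge of the threshold over 5 libraries, and -0.37 over 6. The blue-light receptor gene nph1 (phototropin 1) had 7577, 7550.0 and 7487 against 9254, 9394 and 4487, and rose by a log2 fold change of 0.31 over 5 libraries (limma adjusted p = 0.0641, with -0.04 over 6), while the third biological library lay far below all others. The call of elm1 was lost without any one of the 5 libraries and that of nph1 without any one of the weed-free libraries. Of the 11 other settings that keep the 5 libraries, elm1 lost the call under 9 and nph1 under 2.

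Members of the lists for families that act below phytochrome were mostly within their spread. Of 16 genes listed as homeodomain-leucine zipper, 1 rose (6.25% called, beside 8.19% of all genes) and 13 had a fold change above 0. This list was matched by gene name alone, mostly HB numbers, so some members, such as Hb2, may belong to another family. The gene that rose, HB84, had 1306, 1315 and 1231 against 1761, 1559.7 and 1448. Its log2 fold change was 0.37 (limma adjusted p = 0.0677) over 5 libraries and 0.30 over 6. GT1, a homeodomain-leucine zipper gene that restrains tiller bud outgrowth in maize, had 966, 903 and 1652 against 7687, 1219 and 2571. The first biological library alone was far above the rest, and GT1 did not pass the test (log2 fold change 1.44, limma adjusted p = 0.225 over 5 libraries). ZCN26, of the family of the flowering regulator FT, had 156, 149 and 193 against 363, 369.7 and 517, with no overlap between the groups. It rose by 1.14 on the log2 scale (SE 0.15, limma adjusted p = 0.0145) over 5 libraries, and its value over 6 libraries was 1.31 (adjusted p = 0.131). Of 3 circadian clock genes (GI, gigz1b and PRR59) 0 were called in either direction. The call of ZCN26 was lost without the second weed-free library, and that of HB84 without the first biological or any one of the weed-free libraries.

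**Figure D3:**
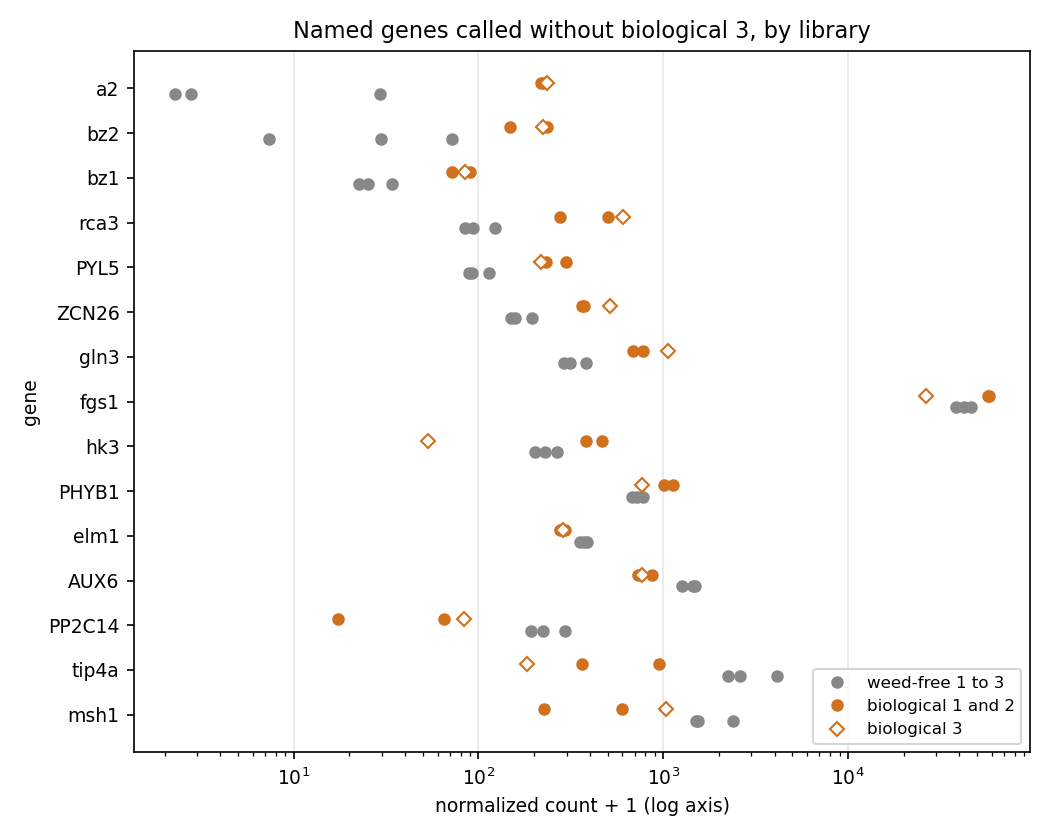
Normalized count + 1 on a log axis for 15 named genes called without biological 3, with 1 point per library (grey, weed-free; filled orange, biological 1 and 2; open diamond, biological 3). In hk3, fgs1 and PHYB1 the open diamond departs from the filled points, with 52.5 against 464 and 380.0 in hk3, whereas in a2 and bz1 the 3 biological points lie together.

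Genes of several hormone pathways were called without the third biological library, and 0 of them over all 6. In abscisic acid, 4 of 10 genes rose (40%, beside 4.53% of all genes) and 0 fell (3.66% of all genes). The median log2 fold change was 0.17, and 3 of the 10 had a fold change below 0. All 4 encode receptors of the PYL family, as does every tested gene of this list except the synthesis gene vp14. PYL5 had 114, 90.7 and 88.1 against 296, 232 and 217, and its log2 fold change was 1.42 (SE 0.18, limma adjusted p = 0.0141) over 5 libraries and 1.34 (adjusted p = 0.131) over 6. PYL7 had 470.0, 369 and 329.7 against 743, 607 and 584, a log2 fold change of 0.80 (limma adjusted p = 0.0463) over 5 libraries and 0.73 over 6. In both the groups did not overlap, and both calls were also made from TPM values. The call of PYL5 was lost without the second weed-free library, and that of PYL7 without the second or the third and with all groups in 1 fit.

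PYL2 had 346, 272 and 368 against 726, 456 and 760.2, a log2 fold change of 0.82 (limma adjusted p = 0.0722) over 5 libraries and 0.95 over 6. PYL3 had 118, 98.4 and 92.9 against 216, 142 and 191, a log2 fold change of 0.77 (limma adjusted p = 0.0866) over 5 libraries and 0.81 over 6. These groups also did not overlap, but neither gene was called from TPM values, nor without the first biological or any one of the weed-free libraries. The synthesis gene vp14, for the enzyme that cleaves the carotenoid precursor of abscisic acid, had 57.3, 44.7 and 38.8 against 16.4, 31.2 and 29.9 and did not pass the test (limma adjusted p = 0.134).

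In cytokinin, 5 of 24 genes rose and 1 fell, which is 25% called beside 8.19% of all genes, with a median log2 fold change of 0.19. The genes that rose have unlike roles, since IPT5 encodes an enzyme of cytokinin synthesis, cko3 an oxidase that degrades it, and HK1, hk2 and hk3 receptor kinases. IPT5 had 27.8, 19.2 and 26.5 against 51.8, 47.8 and 95.3, a log2 fold change of 1.01 (limma adjusted p = 0.0885) over 5 libraries and 1.32 over 6. The oxidase gene cko3 had 726, 565 and 661 against 1617, 938 and 1029, a log2 fold change of 0.93 (limma adjusted p = 0.0584) over 5 libraries and 0.84 over 6. The groups of these 2 genes did not overlap. Neither was called without any one of the weed-free libraries, and IPT5 also not without the first biological library, by DESeq2 or with all groups in 1 fit.

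The receptor genes differed from them in the third biological library. The gene hk3 had 227, 201 and 264 in the weed-free libraries and 464, 380.0 and 52.5 in the biological libraries. The first and second biological libraries were the highest of the 6 and the third was the lowest by a wide margin. Its log2 fold change was 0.87 (SE 0.15, limma adjusted p = 0.0345) over 5 libraries and -0.12 (adjusted p = 0.969) over 6. HK1 had 213, 231 and 279 against 364, 339.6 and 202, and hk2 had 684, 569 and 607 against 777, 827 and 442, with the third biological library again the lowest of the 6 in both. The log2 fold change of HK1 was 0.55 over 5 libraries and 0.29 over 6, and that of hk2 0.37 and 0.09. The response regulator gene crr5 fell, with 748, 710.4 and 715 against 353, 591 and 637 (log2 fold change -0.66, limma adjusted p = 0.0952 over 5 libraries, with -0.50 over 6). From TPM values IPT5 alone of these 6 genes was called, and without the first or the second weed-free library none of them was. HK1, hk2 and crr5 also lost the call without the first biological library, hk2 without the second biological library, and hk2 and crr5 without the third weed-free library. With the trend over gene span removed (described below), HK1, hk2 and crr5 were not called, so 3 genes of the list rose and 0 fell. With all groups in 1 fit, cko3 and hk3 alone were called.

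Of 35 auxin genes, 0 rose and 1 fell, which is 2.86% beside 8.19% of all genes. This was AUX6, with 1475, 1439 and 1258 against 726, 865 and 769.9, so that the highest biological library had well under the count of the lowest weed-free library (log2 fold change -0.81, SE 0.11, limma adjusted p = 0.0172 over 5 libraries; -0.82, adjusted p = 0.131 over 6). Of 24 jasmonate genes, 0 rose and 2 fell (8.33%, near the share of all genes), among them opr1, for a 12-oxo-phytodienoate reductase, with 23.3, 31.9 and 54.0 against 5.06, 9.35 and 9.69 (log2 fold change -2.16, SE 0.45, limma adjusted p = 0.0489 over 5 libraries, with -2.01 over 6). The other was aoc1, for an allene oxide cyclase, with 285, 313 and 317 against 219, 236 and 359 and a log2 fold change of -0.42 over 5 libraries and -0.20 over 6. Neither jasmonate gene was called by DESeq2, from TPM values or without any one of the weed-free libraries, and aoc1 was also not called without the first biological library. The call of AUX6 was lost without the second weed-free library.

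Of 24 ethylene genes, 1 rose and 1 fell (8.33%, near the share of all genes). ACO31, for an oxidase that makes ethylene, had 390.3, 333 and 356 against 575, 568 and 734, with no overlap (log2 fold change 0.67, SE 0.11, limma adjusted p = 0.0277 over 5 libraries, with 0.79 over 6). EREB197, of the ethylene-responsive factor family, had 267, 291 and 271 against 197, 135 and 246, a log2 fold change of -0.76 (limma adjusted p = 0.0577) over 5 libraries and -0.56 over 6. Of 5 gibberellin genes 0 were called, and the furthest from 0 was Dwarf2, with 70.7, 84.3 and 109.9 against 20.2, 63.3 and 57.4 (limma adjusted p = 0.14). The terpene gene eks1, for the kaurene synthase upstream of gibberellins, rose over 5 libraries, with 2445, 2359 and 2517 against 3899, 3272 and 2373 (log2 fold change 0.55, limma adjusted p = 0.0328, with 0.35 over 6). In eks1 the third biological library lay within the weed-free range. The calls of ACO31, EREB197 and eks1 were lost without the second weed-free library, those of EREB197 and eks1 without the first, and that of EREB197 without the third and from TPM values.

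In the flavonoid and anthocyanin pathway, 4 of 13 genes rose and 2 fell over 5 libraries, which is 46.2% called beside 8.19% of all genes, with a median log2 fold change of 0.01. The largest rise of the comparison among the named genes was that of a2 (LOC100127010), for the dioxygenase that forms anthocyanidins. It had 1.79, 1.28 and 28.4 in the weed-free libraries and 225, 218 and 235 in the biological libraries. The biological libraries were close together, while the third weed-free library was well above the other 2. Its log2 fold change was 5.28 (SE 0.96, limma adjusted p = 0.0368) over 5 libraries and 5.31 (adjusted p = 0.155) over 6, and this scale understates changes of genes with low counts. A second gene that also carries the name a2 (LOC606406) had a log2 fold change of -0.02.

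The gene bz1, for the glucosyltransferase that acts on anthocyanidins, had 21.5, 24.3 and 33.2 against 88.5, 70.6 and 84.0, a log2 fold change of 1.57 (SE 0.27, limma adjusted p = 0.0334) over 5 libraries and 1.60 over 6. The gene bz2, for the glutathione transferase needed to bring the pigment into the vacuole, had 28.6, 6.39 and 71.1 against 234, 146 and 223, a log2 fold change of 2.89 (SE 0.78, limma adjusted p = 0.0841) over 5 libraries and 2.98 over 6. The weed-free libraries of bz2 were spread over a wide range, and its groups still did not overlap. The chalcone synthase gene whp1 had 594, 482 and 744 against 1521, 1079.9 and 1183 and rose by a log2 fold change of 1.10 (SE 0.20, limma adjusted p = 0.0353, with 1.06 over 6), while c2, the other chalcone synthase gene, did not pass the test (0.39, adjusted p = 0.151). The genes that fell were a4, with 599.8, 663 and 595 against 463, 402 and 575 (log2 fold change -0.52 over 5 libraries and -0.38 over 6), and pl, a MYB activator of the pathway, with 199, 209.5 and 212 against 145, 143 and 177 (log2 fold change -0.52 over 5 libraries and -0.42 over 6). From TPM values a2, bz1 and a4 were called, and DESeq2 did not call bz1 and bz2. The calls of all 6 genes (a2, bz1, bz2, whp1, a4 and pl) were lost without the first or the second weed-free library, those of a4 and pl without the third, and those of bz2 and pl without the first biological library.

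Among genes of C4 photosynthesis and the Calvin cycle, 3 of 12 rose (25%, beside 4.53% of all genes) and 0 fell over 5 libraries, 11 of the 12 had a fold change above 0, and the median log2 fold change was 0.21. A pair of these encode Rubisco activase, which frees the active site of Rubisco. The gene rca3 had 122, 83.1 and 92.9 against 503, 274 and 603, a log2 fold change of 1.91 (SE 0.26, limma adjusted p = 0.0166) over 5 libraries and 2.14 over 6. The gene rca1 was counted far more often, with 42901, 38513 and 45793 against 61088, 54548 and 79833, and its log2 fold change was 0.45 (limma adjusted p = 0.0644) over 5 libraries and 0.60 over 6. PPDK2, a second pyruvate phosphate dikinase gene that also carries the name CYPPDKZM2, had 7934, 7205 and 7622 against 10831, 9896 and 10937. Its log2 fold change was 0.45 (SE 0.08, limma adjusted p = 0.039) over 5 libraries and 0.48 over 6. The gene ppdk1, which carries the name C4ppdkZm1, was not called. In all 3 genes that rose the groups did not overlap, and rca3 and PPDK2 were also called from TPM values. The calls were lost without the second weed-free library in all 3, without the first in rca1 and PPDK2, and without the first biological library in rca1.

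The genes with the highest levels did not pass the test. Of the 10 most abundant genes by TPM, 0 were called in either fit. CAB1, a light-harvesting protein gene, had 15602 ± 209.8 TPM (SD, n = 3) in the weed-free and 15839 ± 1201.5 TPM (SD, n = 3) in the biological libraries. Of 8 light-harvesting genes, all 8 had a fold change above 0 with a median log2 fold change of 0.08, and 1 passed the test, cab48, with 12391, 11784 and 12449 against 14529, 16307 and 16479 (log2 fold change 0.33, limma adjusted p = 0.0733 over 5 libraries, with 0.37 over 6). It was not called without the second biological or any one of the weed-free libraries, nor from TPM values. A pair of genes among the 10, LOC100281879 and LOC103643653, had high TPM values with normalized counts of only 1422 to 2096 and 1601 to 2741, so their levels are uncertain.

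**Figure D4:**
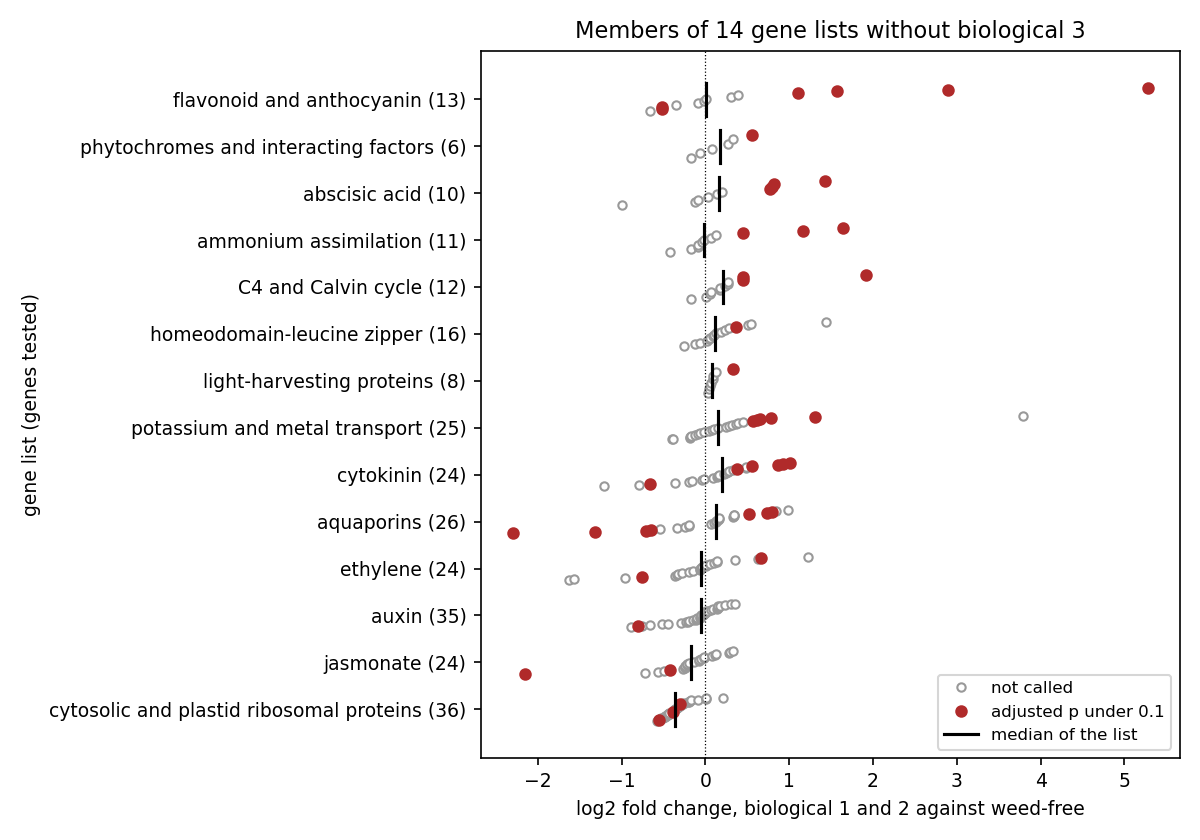
Log2 fold change of biological 1 and 2 against weed-free for each tested gene of 14 lists (red, adjusted p under 0.1; open grey, not called; black bar, the list's median). The red points of the abscisic acid list all lie right of 0, and 33 of the 36 ribosomal protein genes lie left of 0.

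In ammonium assimilation, 3 of 11 genes rose (27.3%, beside 4.53% of all genes) and 0 fell, with a median log2 fold change of -0.02. The gene gln3, for a cytosolic glutamine synthetase, had 311, 289 and 380.0 against 689, 775 and 1057, so the third biological library was the highest (log2 fold change 1.17, SE 0.14, limma adjusted p = 0.0129 over 5 libraries, with 1.35 over 6). The gene fgs1, for ferredoxin-dependent glutamate synthase, had 46136, 38347 and 42572 against 57947, 56883 and 26468, so the third biological library was the lowest of the 6 (log2 fold change 0.44, limma adjusted p = 0.0606 over 5 libraries, with 0.07 over 6). The same library thus held the highest count of one of these 2 genes and the lowest of the other, and gln3 was already higher in the first and second biological libraries. The span of fgs1 was 17871 bases and that of gln3 7813 bases. Both lie in the longest of the 5 span groups given below, in which the third biological library had a median difference of -0.45, so gln3 went the other way. Of 9 ferredoxin and thioredoxin genes 1 rose and 1 fell (22.2%, beside 8.19% of all genes). Of the 9, 8 had a fold change below 0, and the median log2 fold change was -0.22. The gene that rose, the only member above 0, was fnr1, for a ferredoxin-NADP reductase, with 1095, 1066 and 1315 against 2790.0, 1511 and 1727 (log2 fold change 0.83, limma adjusted p = 0.0845 over 5 libraries, with 0.75 over 6). The gene that fell was trxh1, for a thioredoxin, with 3992, 4813 and 3778 against 2997, 3261 and 5022 (log2 fold change -0.42, limma adjusted p = 0.0851 over 5 libraries, with -0.19 over 6). NAR2.2, for a partner protein of nitrate transporters, had 151, 208 and 165 against 96.1, 111 and 191 (log2 fold change -0.74, limma adjusted p = 0.0661 over 5 libraries, with -0.45 over 6). The call of gln3 was lost without the second weed-free library, and those of fgs1, fnr1, trxh1 and NAR2.2 without the first biological or any one of the weed-free libraries and from TPM values.

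Among potassium and metal transport genes, 5 of 25 rose (20%, beside 4.53% of all genes) and 0 fell over 5 libraries, with a median log2 fold change of 0.15. Of these, 4 are HAK potassium transporter genes. HAK7 had 337, 317 and 389 against 568, 493 and 516 (log2 fold change 0.61, limma adjusted p = 0.0488 over 5 libraries, with 0.60 over 6), and HAK9 had 442, 386 and 538 against 803, 629 and 647 (log2 fold change 0.65, limma adjusted p = 0.0685 over 5 libraries, with 0.61 over 6). The groups of both did not overlap. HAK3 was counted less often, with 11.6, 14.1 and 12.3 against 43.0, 24.9 and 51.7 (log2 fold change 1.31, limma adjusted p = 0.0926 over 5 libraries, with 1.52 over 6). The phosphate transporter gene pht3 had 375, 279.8 and 346 against 488, 457 and 565 (log2 fold change 0.51, limma adjusted p = 0.0885 over 5 libraries, with 0.60 over 6). From TPM values neither pht3 nor any of the 5 potassium and metal transport genes was called. HAK7, HAK9, HAK3 and pht3 lost the call without the first biological library and without the first or the second weed-free library, and HAK3 and pht3 also without the third.

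The transporter gene ys1, which takes up iron bound to phytosiderophores, had 52.8, 75.4 and 391 in the weed-free and 7829, 335 and 472 in the biological libraries. Its groups overlapped, since the first biological library alone was high, and it did not pass the test (log2 fold change 3.79, limma adjusted p = 0.125 over 5 libraries). The same library held the highest counts of 3 unnamed genes that did pass. LOC103636279 had 51.0, 24.3 and 18.0 against 2509, 156 and 211 (log2 fold change 4.42, limma adjusted p = 0.0528 over 5 libraries, with 3.90 over 6). LOC100502313 had 5.37, 3.83 and 9.48 against 405, 31.2 and 38.8 (log2 fold change 4.06, limma adjusted p = 0.0568, with 3.55 over 6), and LOC103636366 had 20.6, 28.1 and 38.8 against 370.4, 62.3 and 58.2 (log2 fold change 2.39, limma adjusted p = 0.0809, with 1.93 over 6). In each, all 3 biological libraries were above the weed-free libraries, and the size of the fold change rested on the first of them. None of the 3 was called from TPM values or without any one of the weed-free libraries, and LOC100502313 and LOC103636366 also not without the first biological library.

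Aquaporin genes moved in both directions, with 3 of 26 higher and 4 lower over 5 libraries (26.9% called, beside 8.19% of all genes) and a median log2 fold change of 0.13. The gene tip4a, for a vacuolar membrane aquaporin, had 2607, 4135 and 2235 against 364, 943 and 181. The groups were far apart and the third biological library was the lowest, giving a log2 fold change of -2.30 (SE 0.38, limma adjusted p = 0.0277) over 5 libraries and -2.86 (adjusted p = 0.207) over 6. Its relative tip4b also fell, with 204, 302 and 219.8 against 149, 60.2 and 137 (log2 fold change -1.32, limma adjusted p = 0.0774, with -1.15 over 6). In the other direction, tip1 had 4656, 4098 and 4702 against 7087, 5800.4 and 10446 (log2 fold change 0.52, limma adjusted p = 0.0489, with 0.75 over 6), and nip2b had 3786, 3387 and 4118 against 8002, 5264 and 9003 (log2 fold change 0.79, limma adjusted p = 0.0486, with 0.95 over 6). These 4 genes had no overlap between the groups, and tip4a alone of the 7 was called from TPM values, though not with all groups in 1 fit. Without the first or the second weed-free library 0 of the 7 were called, and without the third 1 was, tip4a.

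Genes of the translation machinery lay mostly below 0 without the third biological library. Of 36 ribosomal protein genes, 0 rose and 3 fell, 33 had a fold change below 0, and the median log2 fold change was -0.37. The share called was 8.33%, close to that of all genes, and the third biological library was above the other biological libraries by a median of 0.52 on the log2 scale. Over 6 libraries the median was -0.19. The gene L29 had 9591, 9932 and 9777 against 7668, 8222 and 11655 (log2 fold change -0.30 over 5 libraries and -0.11 over 6), and rps4 had 916, 859.9 and 1002 against 515, 766 and 906 (-0.56 and -0.38). In L29 the third biological library was the highest of all 6. Without the second biological library 26 of the 36 genes were called lower, and without the first, or any one of the weed-free libraries, 0 were. With the trend over gene span removed the count was also 0. Of 11 translation factor genes 0 were called, with a median of -0.24.

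The benzoxazinoid list, of maize defence compounds, had 1 of 13 genes higher (7.69% called, beside 8.19% of all genes), glu1, for the glucosidase that releases them, with 205, 115 and 208 against 325, 444 and 437 (log2 fold change 1.16, limma adjusted p = 0.0589 over 5 libraries, with 1.22 over 6). The beta-expansin gene expB8, of a family that loosens cell walls, had 405, 300.3 and 294 against 169, 217 and 375 (log2 fold change -0.78, limma adjusted p = 0.0589, with -0.46 over 6), and the cellulose synthase gene cesa5 had 1039, 1177 and 1351 against 1665, 1581 and 1316 (log2 fold change 0.46, limma adjusted p = 0.075, with 0.36 over 6). In both, the third biological library fell among the weed-free libraries. The calls of glu1, expB8 and cesa5 were lost without the first or the second weed-free library and from TPM values, those of glu1 and expB8 without the third, and those of expB8 and cesa5 without the first biological library. The dehydrin gene dhn2 had 859, 1306 and 733 against 406, 369.7 and 933 (log2 fold change -1.27, limma adjusted p = 0.0297; -0.85, adjusted p = 0.527 over 6). It was the only gene of a list that was still called without the second weed-free library, but it was not called without the first or with all groups in 1 fit. In all, 40 of 510 tested list members rose and 27 fell over 5 libraries, which is 13.1% beside 8.19% of all genes, and 15 of the 47 lists held no call. The lists were chosen with earlier results of these data known, so a larger share in them is a description only. Of the 67 calls in the lists, 1 was kept without the second weed-free library, 8 without the first, 25 without the third, and 33 and 58 without the first and the second biological library.

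Among unnamed genes, the fall that held best was that of LOC100274637. It had 614, 525 and 499 in the weed-free libraries and 133, 170.3 and 267 in the biological libraries, so the third biological library was the closest to the control. Its log2 fold change was -1.85 (SE 0.15, limma adjusted p = 0.00328) over 5 libraries and -1.57 (adjusted p = 0.142) over 6, and it was called over 5 libraries whichever other library was left out. The deepest fall among genes with a mean of at least 50 and no overlap was that of PP2C14, of the protein phosphatase 2C family, with 221, 294 and 191 against 16.4, 64.4 and 82.4 (log2 fold change -2.79, SE 0.47, limma adjusted p = 0.0302 over 5 libraries, with -2.35 over 6). LOC100280101 had counts of 633, 951 and 527 against 96.1, 242 and 95.3 (log2 fold change -2.15, limma adjusted p = 0.0311, with -2.38 over 6). PP2C14 and LOC100280101 were not called without the first or the second weed-free library.

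The place of the third biological library was also described for the genes called without it. Of the 1069 genes that rose over 5 libraries, this library was above all weed-free libraries in 518 (48.5%), below all of them in 492 (46.0%) and among them in 59 (5.52%). Of the 863 that fell, it was below all weed-free libraries in 446 (51.7%), above all in 218 (25.3%) and among them in 199 (23.1%). Over all genes tested it was above in 36.4% and below in 39.9%. These shares use the same weed-free libraries as the calls and are a description. In 1775 genes it was at least 2-fold below the lowest of the other 5 libraries and in 34 at least 2-fold above the highest, whereas the other libraries had 19 to 183 such genes below.

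Of the 1775 genes, 552 were at least 4-fold below, and the 10 furthest below had normalized counts of at most 49.3 in it. LOC103650707 had 940.0, 845 and 822 in the weed-free libraries and 981, 954 and 20.2 in the biological libraries. The potassium channel gene kch4 had 167, 159.7 and 165 against 196, 204 and 4.04, and LOC118475605 had 499.6, 319 and 358 against 437, 384 and 4.04. In each, the first and second biological libraries were near the weed-free libraries. Genes far above were fewer and less extreme, such as LOC100282076, with 63.6, 49.8 and 53.1 against 149, 159.9 and 450.0, which also rose over 5 libraries (log2 fold change 1.47, limma adjusted p = 0.0141; 1.98 over 6, adjusted p = 0.233). Its call was lost without the second weed-free library.

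The deviation of the third biological library followed the span of the gene, from its start to its end with introns. When the genes were divided by span into 5 groups of equal size, in the shortest group (median 1259 bases) its median difference from the mean of the other 5 libraries was 0.34 on the log2 scale, and in the longest group (median 11524 bases) it was -0.45. The first and second biological libraries went from -0.09 and -0.07 in the shortest group to 0.17 and 0.16 in the longest, and the weed-free libraries lay between -0.04 and 0.11 in these 2 groups. Across the 23600 genes, which are not independent, Pearson's r between the log10 span and this difference was -0.39 in the third biological library and 0.07 to 0.22 in the other 5. The third biological library is part of the mean used for each of the other 5, so their rise with span follows in part from its fall. Without it, the median log2 fold change of biological against weed-free was -0.06 in the shortest group and 0.07 in the longest.

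Span moved with the calls as well. In the shortest group 3.83% of genes rose and 5.55% fell over 5 libraries, and in the longest group 8.01% rose and 1.59% fell. The median span was 4976 bases among the genes that rose, 2712 bases among those that fell and 3759.5 bases among all tested. The 11 genes called over 6 libraries spanned 627 to 2980 bases, with a median of 1016, and all 11 were shorter than the median of the genes tested. With a smooth trend over span removed from each library, all 11 were called again among 69 genes (59 higher and 10 lower) over 6 libraries, and 1630 genes were called over 5. The part of RNA quality or of the mapping in this pattern was not tested.

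**Figure D5:**
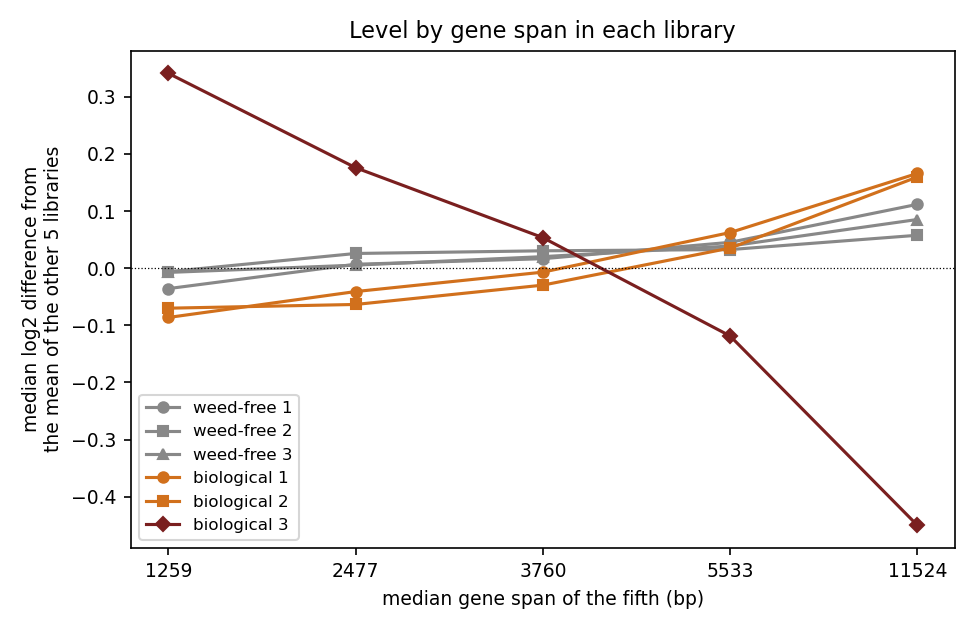
Median log2 difference of each library from the mean of the other 5, for 5 groups of genes ordered by gene span (x axis, the median span of each group in bases). The line of biological 3 goes down from 0.34 to -0.45, while those of biological 1 and 2 go up from -0.09 and -0.07 to 0.17 and 0.16. Biological 3 is part of the mean behind each of the other lines, which lifts them where it is low.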

How the data were processed

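The second leaf of maize seedlings was profiled by RNA-seq in 3 weed-free and 3 biological low R:FR libraries. The deposited signal values are gene counts that the authors divided by DESeq2 size factors, and the deposited TPM values are levels per length in 1 file per library. Per the submitters' processing notes Bowtie2 2.4.3, HTSeq 0.13.5 and DESeq2 1.30.1 were used, whereas the study's methods name STAR and featureCounts. The study's methods name the assembly Zm-B73-REFERENCE-NAM-5.0. All columns were assigned to samples by their names, and 0 columns were left unmapped. Columns of the authors' own comparisons hold fold changes and p-values and were not used.

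Every value was a whole multiple of the value of 1 read (100% of values within 0.01), which gave the reads per library, 22775151 to 40283408. Genes reaching 10 in 3 or more of the 6 libraries were tested on log2(value + 1) with limma 3.58.1 (variance trend, two-sided, no block, R 4.3.3), with Benjamini-Hochberg adjusted p under 0.1 over all 23600 genes, over 6 libraries and over 5 without the third biological library. On simulated data for the 6-library comparison (23600 genes), the fit called 78 of 100 genes changed by 2-fold, 100 of 100 changed by 4-fold and 19 of 23400 unchanged genes. The simulation gave all genes the same relative spread, held no library that stood apart, and changed only genes with higher counts. It checks the fit and does not give the share of real changes that these 6 libraries could reveal. The pseudocount understates changes of low genes. Alternatives were edgeR 4.0.16 and DESeq2 1.42.0 on the recovered reads, TMM scaling, TPM, other pseudocounts, no filter, all groups in 1 fit, sample weights, a replicate block, other thresholds and leaving out each library. Removing a smooth trend over gene span and putting the artificial in place of the weed-free libraries were chosen after seeing the data. Tables were written with Python 3.11.15, numpy 2.4.6 and pandas 2.3.3.

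Gene names came from RefSeq, which matched 29125 of 30184 genes and named 3278, of which 2403 were tested. The comparison and its 50 gene lists, 47 with a tested member, were chosen with earlier results of these data known. From the lists 32 matches were left out where the name belonged to another gene. Named genes were those called over 6 libraries, the 12 largest rises and falls over 5 libraries (mean at least 50, no overlap over 6), up to 4 called members per list and direction, the 10 most abundant by TPM and the 10 in which the third biological library lay furthest below, and above, the others. Further members of the phytochrome, hormone, pigment, transport and clock lists and the span examples were named after their values were seen. A planned count of promoter motifs was not run, because no promoter sequences were used here.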

Additional observations from a re-analysis of the deposited data

How the results depend on the processing

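Over 6 libraries, the count of 11 called genes moved to 2 at adjusted p under 0.05, 501 with DESeq2, 50 from TPM values, 94 with all groups in 1 fit, 1288 with sample quality weights, 69 with the trend over gene span removed and 0 with the artificial in place of the weed-free libraries, and it was 8 to 12 with edgeR, TMM scaling, no filter, other pseudocounts or a fold of at least 1.5. Leaving out each replicate gave 0 to 1932 genes. Over 5 libraries, the count of 1932 moved to 606 at adjusted p under 0.05, 918 at a fold of at least 1.5, 531 from TPM values, 1162 with sample quality weights and 110 with the artificial libraries, and leaving out each replicate gave 32 to 4120. DESeq2 called 2110, edgeR 1908, TMM scaling 1902, no filter 1498, all groups in 1 fit 1658 and the removed trend 1630. The study describes its experiments as a randomized complete block design, and the labels do not say whether the replicate numbers mark blocks. Deviations from the group mean had r = 0.12, -0.01 and 0.06 between samples of the same replicate number. With 3 libraries per group, of which the third biological one stood apart, these values cannot decide whether the samples are paired. A replicate block gave 1 gene over 6 and 2384 over 5 libraries. DESeq2 shared 1733 calls with the 1932, edgeR 1806 and TPM 504. The sample weights were 0.154 for the third biological library and 0.713 to 2.49 for the others. LOC103653487 changed sign from TPM values (log2 fold change -0.060 against 0.86 over 5 libraries). Of 101 named genes called over 5 libraries, 35 kept the call under all 11 settings that keep the 5 libraries. The causes of these differences were not tested. Each group had 3 libraries of 22775151 to 40283408 reads, and values below about 10 are near the filter.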

Other observations

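Long non-coding RNAs and transcribed pseudogenes stood lower in the third biological library. Among 984 long non-coding RNAs tested, this library was below the mean of the first and second biological libraries by a median of -0.69 on the log2 scale, and among 502 transcribed pseudogenes by -0.56, beside 0.06 among 21464 protein-coding genes. The 126 ribosomal RNA genes tested were higher in it, by a median of 0.82. Long non-coding RNAs took 0.353% of the reads in this library and 0.444% to 0.509% in the other 5. Over the 5 libraries without it, 64 long non-coding RNAs rose and 11 fell, which is 7.62% of those tested, and 44 transcribed pseudogenes rose and 5 fell, which is 9.76% (limma adjusted p under 0.1), beside 8.19% of all genes and 8.31% of protein-coding genes.

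The calls over 5 libraries were spread over all 10 chromosomes, from 7.38% of the genes tested on chromosome 4 to 9.32% on chromosome 1. Of 2403 tested genes that carry a name, 128 rose and 106 fell. In several lists 0 members were called over 5 libraries, among them 16 NAC factors, 14 starch and sucrose genes and 7 phenylpropanoid and lignin genes. The clock gene GI had normalized counts of 10113, 10498 and 10114 in the weed-free and 9720.2, 11439 and 5759 in the biological libraries, and PRR59 had 747, 965 and 765 against 529.7, 887 and 208. Both were lowest in the third biological library and neither was called over 5 or 6 libraries.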
